A study of Caenorhabditis elegans with 5 samples.

Results

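The major sperm proteins (MSPs) were followed here as a gene family of Caenorhabditis elegans. Every gene symbol that begins with msp- followed by a digit was taken, which gave 31 of the 45251 gene rows in the count tables. MSPs are small, highly conserved proteins of nematode sperm. They assemble into the filaments on which the amoeboid sperm crawls, and sperm also release them as a signal that triggers oocyte maturation and contraction of the gonadal sheath. The family is transcribed in developing sperm, and a hermaphrodite makes its sperm around the last larval stage before the germline switches to oocytes, so msp RNA is widely used as a sign of sperm formation.

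RNA came from whole worms of the wild-type laboratory strain N2, labelled as L4 to adult. Animals were kept at 20 °C with OP50 bacteria as food and were placed for 24 h on plates that held Bisphenol TMC (BPTMC, a bisphenol) or Dimethyl sulfoxide (DMSO, the control), with 1 mM given for both. The exposed group had 3 libraries and the control group 2, all made with the Lexogen QuantSeq kit, which reads the 3′ end of transcripts, from 500 ng of total RNA. Neither the number of worms nor their sex is labelled, and nothing says that replicates were separate cultures, so every p-value here rests on a spread between libraries that could be technical. In RNA from whole worms, fewer sperm-forming cells and less msp RNA per cell cannot be told apart.

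The libraries held 16531114 to 24362712 counts over 17405 to 19075 genes with a read. Ribosomal RNA genes took 11.2% to 24.7% of the counts. All values below are raw read counts or CPM, read counts scaled to library size with the trimmed mean of M-values (TMM).

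On the WBcel235 assembly as annotated by Ensembl, the 31 msp genes are all protein-coding, each has a single exon, and 17 lie on the plus strand. They fall into 4 clusters when genes less than 300000 bases apart are joined. The large chromosome II cluster holds 10 genes from 4785898 to 5200180, and the small chromosome II cluster holds msp-63, msp-142 and msp-64 from 5797065 to 5810330. The left chromosome IV cluster holds 9 genes from 5055631 to 5316906, and the right chromosome IV cluster holds 9 genes from 9689015 to 10143740. The gene model spans 384 bases in 28 of the 31 genes, and counts were not corrected for length. The exceptions are msp-32 with 360 bases and msp-58 and msp-74 with 234 bases each. None of the 31 models has an annotated 3′ untranslated region, whereas 83.8% of the 19399 protein-coding rows do. Because a 3′ tag read starts near the end of the transcript, reads lying wholly beyond such a model would not be counted. How many msp reads were lost in this way was not tested, and the sources used here do not give the annotation used for counting.

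The family as a whole was high in 2 of the 3 BPTMC libraries and low in the third. Summed over the 31 genes, DMSO replicates 1 and 2 held 2191 and 899 reads, whereas BPTMC replicates 1, 2 and 3 held 9168, 1088 and 5762 reads. The summed level was 98.1 and 42.3 CPM in the DMSO libraries and 448, 55.5 and 293 CPM in the BPTMC libraries. BPTMC replicate 2 therefore lay between the DMSO libraries, and the groups overlapped.

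As a share of all counts in the library, msp reads made up 0.00899% in DMSO replicate 1 (exact 95% binomial interval 0.00862% to 0.00938%) and 0.00454% in DMSO replicate 2 (0.00424% to 0.00484%). The share was 0.0389% in BPTMC replicate 1 (0.0381% to 0.0397%), 0.00545% in replicate 2 (0.00513% to 0.00578%) and 0.0349% in replicate 3 (0.0340% to 0.0358%). None of these intervals overlapped another, although they cover counting error only. The spread between libraries was thus far larger than counting error, within each group as well as between groups.

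The group means of the summed level were 70.2 ± 39.5 CPM in DMSO (SD, n = 2) and 266 ± 198 CPM in BPTMC (SD, n = 3). The BPTMC mean was 3.78-fold higher than the DMSO mean. Within BPTMC, replicate 1 was 8.07-fold above replicate 2, and within DMSO, replicate 1 was 2.32-fold above replicate 2. The difference between libraries of the BPTMC group was therefore larger than the difference between the group means.

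**Figure D1:**
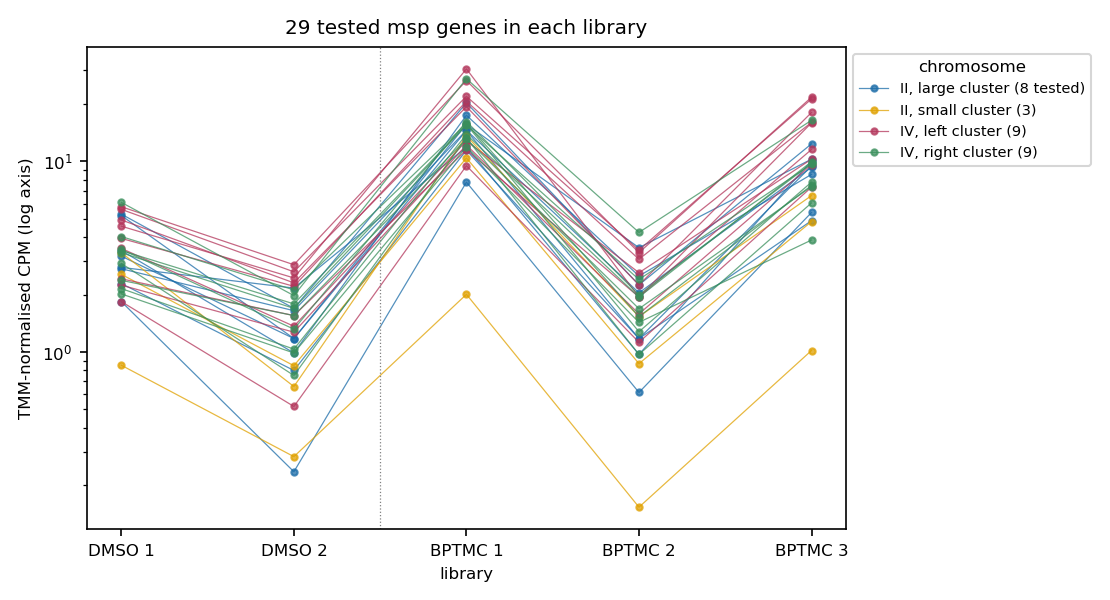
TMM-normalised CPM (log axis) of the 29 tested msp genes in the 5 libraries, with 1 point per gene and library, thin lines joining the same gene and colours for the 4 chromosomal clusters. The genes move together: they are high in BPTMC replicates 1 and 3, and in BPTMC replicate 2 they lie within or below the range of the DMSO libraries.

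Single genes followed the family. BPTMC replicate 1 was the highest library for 30 of the 31 genes, against 30.8% of all tested genes. BPTMC replicates 1 and 3 both exceeded the 3 other libraries for 30 of 31 genes, against 19.6% of all tested genes. The exception was msp-32, which had at most 17 reads in any library. DMSO replicate 2 was the lowest library for 22 genes and BPTMC replicate 2 for 8, and for msp-74 these libraries tied with no read.

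BPTMC replicate 2 lay below DMSO replicate 1 for all 31 genes. It lay between the DMSO libraries for 22 genes, below both for 8, above both for 0, and equal to DMSO replicate 2 for msp-74.

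Ratios between libraries differed in size from pair to pair. BPTMC replicate 1 was 4.44-fold (msp-40) to 15.8-fold (msp-57) above BPTMC replicate 2, with a median of 8.35-fold. The median ratio over the 13761 tested genes with reads in every library was 1.02 for the same libraries, and 6.69% of those genes had a ratio of at least 4.44. DMSO replicate 1 was 1.28-fold (msp-45) to 7.81-fold (msp-3) above DMSO replicate 2, with a median of 2.14-fold. Among all genes 36.4% reached the lowest of these ratios and 13.2% the median. BPTMC replicate 1 over BPTMC replicate 3 ran from 0.995 (msp-51) to 3.09 (msp-38), with a median of 1.60 that 32.1% of all genes reached.

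BPTMC was compared with DMSO by edgeR's quasi-likelihood test, with p-values adjusted by Benjamini-Hochberg over the 14238 genes that passed the filter on low counts. Genes with an adjusted p under 0.05 counted as called. Of the 31 msp genes 29 were tested, and 0 were called higher or lower. Over all tested genes 0.105% were called higher and 0% lower. All 29 tested members had a positive log2 fold change, compared with 45.5% of all tested genes. Their median was 1.91, with a range of 0.89 to 2.42 and standard errors (SE) of 0.75 to 1.08, where the median of all tested genes was -0.09. Taken without adjustment, p was under 0.05 for 14 members that were higher and for 0 that were lower, against 7% and 0.4% of all tested genes.

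The smallest adjusted p among the members was 0.563 by edgeR. DESeq2 also called 0 members, beside 1.67% of all tested genes that it called higher and 0.0211% that it called lower. The limma-voom test called 0 members, beside 0.00702% of all tested genes higher and 0% lower. With no adjustment, p was under 0.05 for 23 members by DESeq2, all higher, and for 0 by limma-voom, against 7.87% and 3.95% of all tested genes that were higher. The groups overlapped for all 29 tested members, whereas BPTMC lay wholly above DMSO in 13.4% of all tested genes and wholly below in 9.96%. No left-out library brought a call. The 14 members at an unadjusted p under 0.05 became 0 without BPTMC replicate 3, 2 without BPTMC replicate 1 and 28 without BPTMC replicate 2. In the same order, 627 of 13582, 588 of 13420 and 1519 of 14179 tested genes were higher at that threshold. Leaving out a DMSO library left 1 control, so only effect sizes are given, over 30 tested members. Their median log2 fold change was 2.61 without DMSO replicate 1 and 1.49 without DMSO replicate 2.

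**Figure D2:**
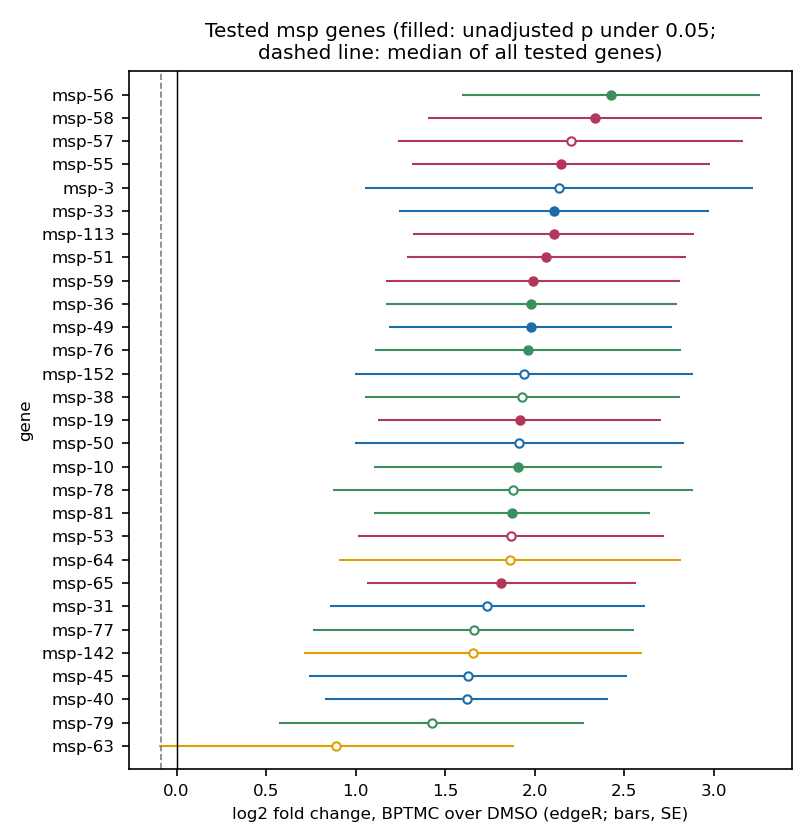
Log2 fold change of BPTMC over DMSO for each tested msp gene (edgeR; bars, SE), coloured by chromosomal cluster. All 29 lie above 0, between 0.89 for msp-63 and 2.42 for msp-56, and the filled points are the 14 genes at an unadjusted p under 0.05, none of which passed the adjusted threshold.

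The members with the highest mean level were msp-59, msp-36, msp-57, msp-19 and msp-53. All 5 have the same 384-base model, and 4 of them lie in the left chromosome IV cluster. msp-59 (chromosome IV, 5312728 to 5313111, minus strand) stood at 5.78 and 2.87 CPM in DMSO replicates 1 and 2 and at 26.5, 3.32 and 21.7 CPM in BPTMC replicates 1, 2 and 3. msp-36, in the right cluster (10095433 to 10095816, plus strand), stood at 6.09 and 1.97 CPM in DMSO and at 27.1, 4.24 and 16.4 CPM in BPTMC. For both genes BPTMC replicate 2 lay between the DMSO libraries. Their log2 fold changes were 1.99 ± 0.82 (SE) for msp-59 and 1.98 ± 0.81 for msp-36, each with an edgeR adjusted p of 0.644 or 0.643.

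msp-57 (chromosome IV, 5062578 to 5062961, plus strand) had the highest value of any member, 30.6 CPM in BPTMC replicate 1. Its other values were 4.57 and 2.44 CPM in DMSO, with 1.94 and 15.9 CPM in BPTMC replicates 2 and 3, so that BPTMC replicate 2 was its lowest library. The log2 fold change was 2.20 ± 0.96, with an edgeR adjusted p of 0.672. msp-19 (5260589 to 5260972, plus strand) stood at 5.598 and 2.63 CPM in DMSO and at 21.95, 3.42 and 21.3 CPM in BPTMC. msp-53 (5064678 to 5065061, minus strand) stood at 4.93 and 2.30 CPM in DMSO and at 19.4, 2.25 and 18.05 CPM in BPTMC. In these genes of the left cluster BPTMC replicates 1 and 3 were nearly equal, unlike in msp-36 and msp-57.

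The 3 highest fold changes belonged to msp-56, msp-58 and msp-57, and the 3 smallest p-values to msp-56, msp-113 and msp-51. msp-56 (chromosome IV, 9841540 to 9841923, plus strand) had 48 and 22 reads in DMSO and 283, 38 and 196 reads in BPTMC. Its level was 1.59 ± 0.789 CPM in DMSO (SD, n = 2) and 8.58 ± 6.07 CPM in BPTMC (SD, n = 3), a log2 fold change of 2.42 ± 0.83 (SE). The edgeR unadjusted p was 0.0188 and the adjusted p 0.563. msp-58 (5308593 to 5308826, plus strand), with the short model, had 41 and 11 reads in DMSO and 194, 22 and 144 in BPTMC, a log2 fold change of 2.33 ± 0.93.

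msp-113 (5297962 to 5298345, plus strand) had a log2 fold change of 2.10 ± 0.78 and msp-51 (5294957 to 5295340, minus strand) of 2.06 ± 0.78. The edgeR adjusted p-values were 0.607 and 0.615. For msp-51 BPTMC replicate 3 (11.54 CPM) stood level with replicate 1 (11.49 CPM), and it was the tested member with the lowest ratio of replicate 1 to replicate 3.

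The lowest fold changes belonged to msp-40, msp-79 and msp-63. msp-40 (chromosome II, 4825414 to 4825797, plus strand) stood at 5.19 and 1.18 CPM in DMSO and at 15.6, 3.52 and 10.3 CPM in BPTMC, a log2 fold change of 1.62 ± 0.79. msp-79 (chromosome IV, 9766771 to 9767154, minus strand) stood at 4.03 and 2.12 CPM in DMSO and at 15.8, 1.53 and 7.47 CPM in BPTMC, a log2 fold change of 1.43 ± 0.85. The lowest, msp-63 (chromosome II, 5797065 to 5797448, minus strand), had only 19 and 6 reads in DMSO and 41, 3 and 20 in BPTMC. Its log2 fold change was 0.89 ± 0.99. Its SE exceeded the fold change, and the range without 1 library at a time was 0.09 to 1.87.

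The members that did not pass the filter were msp-32 and msp-74, both in the large chromosome II cluster. msp-32 had 2 and 5 reads in DMSO and 17, 1 and 2 reads in BPTMC. msp-74 had 2 and 0 reads in DMSO and 9, 0 and 2 in BPTMC, where a count of 0 leaves room for an expected count of up to 3. Both have a shortened model, of 360 bases for msp-32 and 234 for msp-74, but msp-58, whose model also has 234 bases, had up to 194 reads.

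The level of the family differed between clusters, and the balance between clusters differed between libraries. The median level of the tested members in the left chromosome IV cluster was 3.94 and 2.21 CPM in DMSO, against 19.4, 2.25 and 15.9 CPM in BPTMC. In the right chromosome IV cluster it was 3.31 and 1.55 CPM in DMSO, against 15.5, 1.68 and 7.78 CPM in BPTMC. The large chromosome II cluster had medians of 2.98 and 1.18 CPM in DMSO, against 14.5, 1.61 and 9.38 CPM in BPTMC. In the small cluster they were 2.55 and 0.658 CPM in DMSO, against 10.4, 0.868 and 4.83 CPM in BPTMC. The left chromosome IV cluster thus had the highest median in every library and the small chromosome II cluster the lowest.

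Of all msp reads in a library, the left chromosome IV cluster gave 35.5% in DMSO replicate 1 and 40.6% in DMSO replicate 2. In BPTMC it gave 36.8% in replicate 1, 38.2% in replicate 2 and 44.9% in replicate 3. The interval in BPTMC replicate 3 (43.7% to 46.2%) lay above that in BPTMC replicate 1 (35.8% to 37.8%), and it overlapped that in DMSO replicate 2 (37.4% to 43.9%). The right chromosome IV cluster gave 30.3%, 31.3%, 31.8% and 31.4% in the first 4 of these libraries and 26.7% in BPTMC replicate 3 (25.6% to 27.9%). These shares are values of single libraries, chosen for display after they were seen, and the groups overlapped for each cluster.

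The shift between BPTMC replicates 1 and 3 was spread over the members. Of the 9 genes of the left cluster, 8 had a higher share of the msp reads in replicate 3 than in replicate 1, the exception being msp-57. In the right cluster this held for 1 of 9 genes (msp-56), in the small chromosome II cluster for 0 of 3 and in the large one for 3 of 8. The median log2 fold change of BPTMC over DMSO was nevertheless close in the clusters, at 2.06 and 1.91 on chromosome IV and 1.93 and 1.65 on chromosome II.

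**Figure D3:**
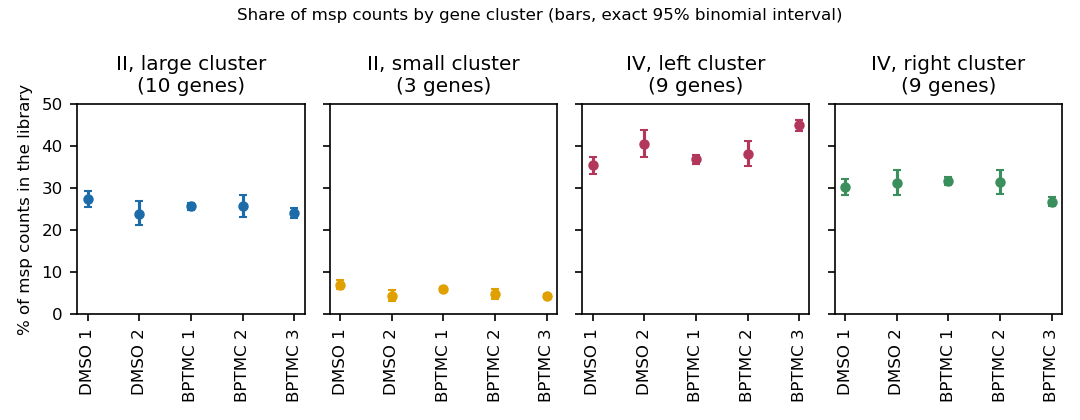
Percentage of all msp reads in a library that came from each of the 4 chromosomal clusters, with 1 point per library and exact 95% binomial intervals that cover counting error only. The left chromosome IV cluster stands at 44.9% in BPTMC replicate 3 and at 35.5% to 40.6% in the other libraries, while the right chromosome IV cluster is lowest in BPTMC replicate 3.

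Because MSPs are encoded by many closely related genes, a read may be assigned to any of several copies, and how such reads were treated is not given in the sources used here. Of 378 pairs of members with a mean of at least 20 reads, 0 pairs had counts within 5% of each other in every library and 6 were within 20%. The median over the 31 members was only 28 reads in DMSO replicate 2 and 33 in BPTMC replicate 2. At such counts counting error alone is larger than 5%, so these numbers of pairs cannot show whether paralogs shared reads. The closest were msp-79 and msp-77, both in the right chromosome IV cluster. They had 90 and 76 reads in DMSO replicate 1 and 323 and 319 in BPTMC replicate 1. The next were msp-19 and msp-59 (largest difference 17.3%), msp-49 and msp-81 (17.6%) and msp-55 and msp-51 (18.4%). msp-49 lies on chromosome II and msp-81 on chromosome IV, so closeness of counts was not limited to members of the same cluster. The ranking of the 31 genes by level was alike between libraries, with Spearman correlations across genes of 0.68 to 0.91 over the 10 pairs of libraries. Genes are not independent replicates, and the correlations serve only as a description.

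Another kind of sharing was visible in the tables. Each of 4 members lies wholly within the span of another protein-coding gene and outside all of its annotated exons. These are msp-33 in an intron of gst-9 on the opposite strand, msp-45 in srb-13 on the same strand, msp-31 in aagr-2 on the same strand and msp-38 in dhs-12 on the opposite strand. gst-9 belongs to the glutathione S-transferases, and srb-13 to a family of chemoreceptor genes.

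msp-45 had 62, 46, 243, 19 and 198 reads in DMSO replicates 1 and 2 and BPTMC replicates 1, 2 and 3. srb-13 had 73, 46, 270, 25 and 214 reads in the same order. The counts of srb-13 thus exceeded those of the gene in its intron by 0 to 27 reads. gst-9 had 108, 30, 390, 63 and 179 reads, which exceeded the 76, 21, 357, 49 and 168 reads of msp-33 by 9 to 33 reads.

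The log2 fold changes were 1.74 ± 0.81 for gst-9 beside 2.11 ± 0.86 for msp-33, and 1.64 ± 0.86 for srb-13 beside 1.63 ± 0.89 for msp-45, none of them called. The 4 genes were high in BPTMC replicates 1 and 3 and low in BPTMC replicate 2. If reads were counted over the whole span of a gene and without regard to strand, a read of the msp gene would be counted for its host too. The counting setting is not given, and the reads of gst-9 and srb-13 cannot be told apart here from those of msp-33 and msp-45. The other hosts were far more abundant, with 1625 to 3521 reads for aagr-2 and 1255 to 2210 for dhs-12, and the msp gene inside amounted to at most 15.0% and 11.7% of their counts. Their log2 fold changes were 0.02 ± 0.45 and 0.12 ± 0.40.

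**Figure D4:**
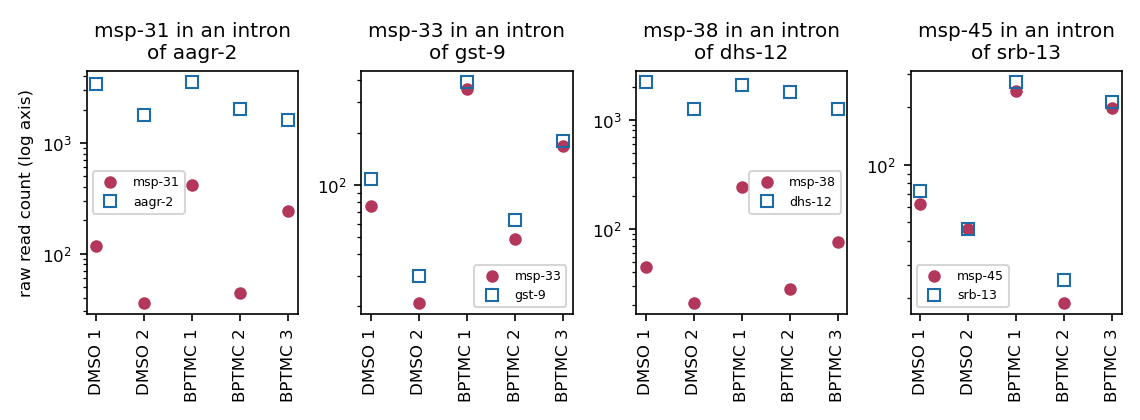
Raw read counts (log axis) in the 5 libraries of the 4 msp genes that lie in an intron of another gene (filled circles) and of the host gene (open squares). The counts of gst-9 and srb-13 follow those of msp-33 and msp-45 closely, whereas aagr-2 and dhs-12 have 1255 to 3521 reads and do not.

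Genes of other sperm families stood high and low in the same libraries as the msp genes. These were the ssp, ssq, sss and msd genes, sperm families several of which carry an MSP-like domain, and the nspd genes, which encode small peptides made in the sperm line. Of 31 such rows 28 were tested and 0 were called by edgeR, against 0.105% of all tested genes called higher and 0% lower. Without adjustment p was under 0.05 for 5 of them, all higher, against 7% of all tested genes. All 28 had a positive log2 fold change (45.5% of all tested genes did), with a median of 1.68. BPTMC replicates 1 and 3 exceeded the 3 other libraries for 26 of the 28 genes, against 19.6% of all tested genes. nspd-2, the most abundant of them, had 461 and 86 reads in DMSO and 1441, 144 and 530 reads in BPTMC. ssp-10, with the smallest p in this list, stood at 2.06 and 0.611 CPM in DMSO and at 11.3, 2.14 and 5.34 CPM in BPTMC. Its log2 fold change was 2.22 ± 0.83. ssp-11 followed with 2.04 ± 0.79 and ssp-35 with 1.99 ± 0.84. nspd-1 had 1.60 ± 0.92.

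Other genes of spermatogenesis, named for roles in sperm fate, meiosis, activation and fertilisation, were mixed. Of 31 rows 18 were tested, with 0 called by edgeR, 0 at an unadjusted p under 0.05, 9 of 18 positive and a median log2 fold change of 0.08. Of all tested genes 0.105% were called higher and 0% lower, 7% and 0.4% had an unadjusted p under 0.05, and 45.5% were positive. BPTMC lay wholly above DMSO for 2 of the 18 and wholly below for 1, against 13.4% and 9.96% of all tested genes. Among them, gsp-3 and gsp-4, phosphatase subunits of sperm, had log2 fold changes of 2.02 ± 1.05 and 1.86 ± 0.91. spe-11, whose product sperm bring to the embryo, had 38 and 29 reads in DMSO and 200, 21 and 118 in BPTMC, a log2 fold change of 1.87 ± 0.84. These 3 genes were high in BPTMC replicates 1 and 3, like the msp genes, although gsp-4 was higher in replicate 3 (3.92 CPM) than in replicate 1 (3.23 CPM). In the whole list, BPTMC replicates 1 and 3 exceeded all other libraries for 6 of the 18 tested genes, against 19.6% of all tested genes.

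The most abundant of this list were zipt-7.1, a zinc transporter needed to activate sperm, and spe-39, which acts in vesicle trafficking and is not restricted to sperm. zipt-7.1 stood at 38.3 and 72.6 CPM in DMSO and at 19.4, 78.9 and 40.9 CPM in BPTMC, lowest in the library where msp genes were highest. spe-39 stood at 31.7 and 52.9 CPM in DMSO and at 17.5, 39.1 and 27.2 CPM in BPTMC. The regulators in this list differed from each other; they are named here after their values were seen. fog-1, which directs germ cells to sperm fate, stood at 5.87 CPM in BPTMC replicate 1 and at 15.0 to 26.98 CPM elsewhere. spe-44, a transcription factor of spermatogenesis genes, stood at 2.79 CPM in BPTMC replicate 1 and at 3.76 to 7.90 CPM elsewhere. elt-1, a GATA factor, stood at 1.03 and 1.504 CPM in DMSO and at 2.44, 2.81 and 1.93 CPM in BPTMC, so that its groups did not overlap and DMSO replicate 1 was its lowest library. fog-3, which acts with fog-1, was not tested, and its 6 reads in BPTMC replicate 1 exceeded the 1 to 3 reads elsewhere. cpb-1, of the same list, stood at 2.15 CPM in BPTMC replicate 1 and at 10.7 to 27.2 CPM elsewhere. Thus BPTMC replicate 1 was the lowest library for fog-1, spe-44 and cpb-1 but not for elt-1 and fog-3.

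Likeness to the msp pattern was measured over all tested genes as the root mean square difference between a gene's log2 CPM, centred on its mean over the 5 libraries, and the mean centred profile of the 29 tested members. The nearest genes outside the family were ssq-4 (0.09), nspd-6 (0.09), C31H1.5 (0.12), R148.7 (0.12), R13H9.6 (0.12) and Y59E9AL.3 (0.12), in log2 units. ssq-4, nspd-6 and R13H9.6 lie on chromosome IV. Of 14209 other tested genes 51 (0.359%) were as near as the median member, at 0.24. Of these, 4 belonged to the ssp, ssq, sss, msd and nspd families and 1, gsp-3, to the other spermatogenesis genes. Likeness over 5 libraries is a description, and the measure weights low counts like high ones.

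**Figure D5:**
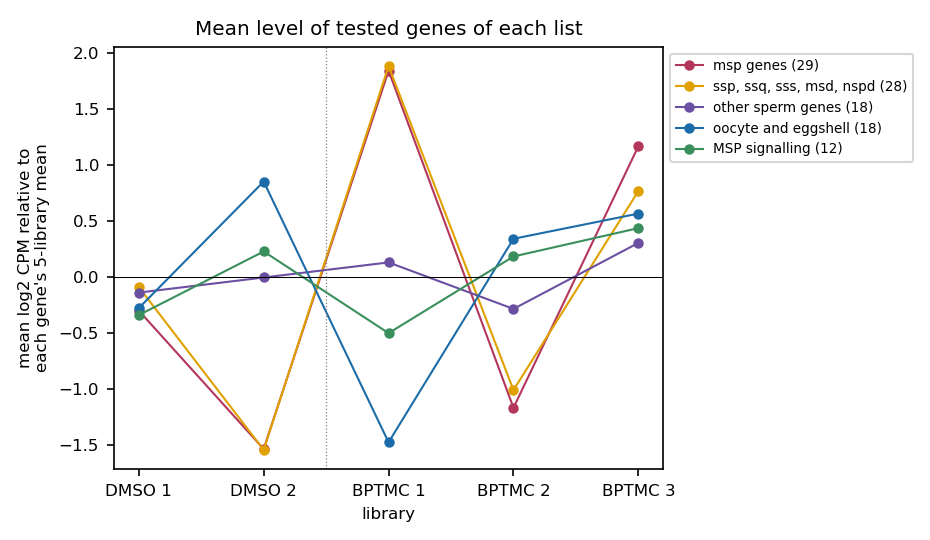
Mean log2 CPM of the tested genes of 5 gene lists in each library, relative to each gene's mean over the 5 libraries. The msp genes and the ssp, ssq, sss, msd and nspd genes lie near 1.8 to 1.9 in BPTMC replicate 1 and near -1.5 in DMSO replicate 2, and oocyte and eggshell genes stand at -1.48 and 0.85 in the same libraries.

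Genes through which MSP acts on the oocyte and sheath were not called. Of 13 rows 12 were tested, with 6 positive and a median log2 fold change of -0.16. Of all tested genes 45.5% were positive and 0.105% were called higher. vab-1, the Eph receptor to which MSP binds, stood at 38.02 and 83.2 CPM in DMSO and at 20.5, 57.2 and 63.7 CPM in BPTMC, with a log2 fold change of -0.36 ± 0.55. The smallest p in this list was that of unc-43, a calcium- and calmodulin-dependent kinase. unc-43 stood at 10.4 and 12.8 CPM in DMSO and at 39.1, 18.5 and 31.1 CPM in BPTMC, so that its groups did not overlap. Its log2 fold change was 1.35 ± 0.45, and its edgeR adjusted p did not pass the threshold. BPTMC lay wholly above DMSO for 5 of the 12 tested genes (ceh-18, gsa-1, acy-4, kin-1 and unc-43), against 13.4% of all tested genes. For 0 of the 12 it lay wholly below, against 9.96%. kin-1 and gsa-1, in the cyclic AMP pathway by which the sheath permits oocyte maturation, had log2 fold changes of 0.94 ± 0.48 and 0.77 ± 0.40. The RNA-binding proteins of oocyte maturation, oma-1 and oma-2, had -0.49 ± 0.67 and -0.44 ± 0.61.

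Oocyte and eggshell genes ran in the opposite direction in some libraries. Their mean level relative to each gene's mean was -0.28 log2 units in DMSO replicate 1 and 0.85 in DMSO replicate 2. In BPTMC it was -1.48 in replicate 1, 0.34 in replicate 2 and 0.56 in replicate 3. The tested msp genes stood at -0.30 and -1.54 in DMSO and at 1.84, -1.17 and 1.17 in BPTMC on the same scale. BPTMC replicate 1 was thus the highest library for msp genes and the lowest for oocyte genes, whereas BPTMC replicate 3 was above the mean in both. The eggshell proteoglycan gene cpg-2 stood at 467 and 1305 CPM in DMSO and at 197, 915 and 1089 CPM in BPTMC. cpg-1 stood at 386 and 1113 CPM in DMSO and at 148, 636 and 992 CPM in BPTMC. Of the 18 genes, all tested, 0 were called, 0 had an unadjusted p under 0.05 and 1 had a positive log2 fold change, with a median of -0.35. Over all tested genes 0.105% were called higher and 0% lower, and 45.5% had a positive log2 fold change. At an unadjusted edgeR p under 0.05 the shares were 7% higher and 0.4% lower.

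Stage and tissue markers were measured beside the msp genes, and their part in the msp differences was not tested. For comparison, 45.5% of all tested genes had a positive log2 fold change, 30.8% were highest in BPTMC replicate 1 and 0.105% were called higher. Of 9 tested larval moult genes, nas-37, a moulting protease, stood at 14.1 and 3.48 CPM in DMSO and at 55.4, 10.2 and 17.8 CPM in BPTMC, with its highest library the same as for the msp genes. bli-5, of the same list, was lowest there, at 10.7 CPM against 14.9 to 20.9 CPM elsewhere. Of these 9 genes, 5 had a positive log2 fold change and 3 were highest in BPTMC replicate 1, and their summed level was 32.1 to 36.7 CPM in DMSO and 35.1 to 75.4 CPM in BPTMC. Of 5 tested adult cuticle genes, 4 had a positive log2 fold change, with a list median of 0.86 and 0 called, and the same 4 (col-7, col-62, bli-1 and bli-6) were highest in BPTMC replicate 1. col-7, a collagen gene, stood at 6.63 and 1.41 CPM in DMSO and at 14.7, 2.60 and 4.58 CPM in BPTMC. The mean centred profile of the 5 genes was 0.32 and -1.10 log2 units in DMSO and 1.30, -0.80 and 0.28 in BPTMC, so it was highest in BPTMC replicate 1 and lowest in DMSO replicate 2, as for the msp genes. The adult collagen gene col-19 was the exception, at 613 and 528 CPM in DMSO and at 379, 732 and 330 CPM in BPTMC. It makes up nearly all of the list's summed level, which was 532 to 630 CPM in DMSO and 344 to 738 CPM in BPTMC. Of 8 body-wall muscle genes, unc-54, the main muscle myosin, stood at 73.4 and 88.4 CPM in DMSO and at 345, 103 and 141 CPM in BPTMC. Of the 8 muscle genes 7 had a positive log2 fold change and 6 were highest in BPTMC replicate 1, and they summed to 1070 to 1423 CPM in DMSO and 1048 to 2581 CPM in BPTMC. Of the 6 yolk protein genes, vit-1 stood at 1407 and 972 CPM in DMSO and at 244, 498 and 87.5 CPM in BPTMC, a log2 fold change of -2.10 ± 0.63. vit-2 had 0.96 ± 0.47 and vit-3 -1.49 ± 0.53, and the list summed to 13894 to 16364 CPM in DMSO and 14524 to 26053 CPM in BPTMC.

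Males also make sperm, so genes of male-specific neurons and seminal fluid were examined. cil-7, cwp-1 and cwp-3 had no read in any library, lov-1 had 4 reads in BPTMC replicate 1 only, and pkd-2 had 9 reads in DMSO replicate 1 only. A count of 0 leaves room for an expected count of up to 3 in a library. try-5, a protease of male seminal fluid, stood at 17.9 to 21.2 CPM in all 5 libraries and did not follow the msp genes. swm-1 stood at 20.4 and 9.12 CPM in DMSO and at 29.7, 20.4 and 8.90 CPM in BPTMC. klp-6 had 34 and 6 reads in DMSO and 35, 23 and 28 in BPTMC. cwp-4 had 32 and 14 reads in DMSO and 28, 25 and 45 in BPTMC. The mean centred profile of the 4 tested genes was highest in BPTMC replicate 1 (0.37 log2 units) and lowest in DMSO replicate 2 (-0.79), as for the msp genes. Of 11 rows 4 were tested and 0 called, and these 4 summed to 31.2 to 42.3 CPM in DMSO and 31.1 to 50.6 CPM in BPTMC. Over the 9 lists together, edgeR, DESeq2 and limma-voom called 0 of 108 tested genes. Of all tested genes they called 0.105%, 1.67% and 0.00702% higher. At an unadjusted p under 0.05 edgeR gave 7 higher and 2 lower, beside 7% and 0.4% of all tested genes. DESeq2 gave 17 and 2, beside 7.87% and 0.541%, and limma-voom 1 and 2, beside 3.95% and 0.471%. As shares of the 108 genes, the higher counts were 6.48%, 15.7% and 0.926%.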

How the data were processed

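RNA was measured in 5 whole-worm libraries. Each sample has 1 table that the authors deposited, with unnormalised read counts by gene symbol. Per the submitters' processing notes the authors used Bowtie2 and bedtools on WBcel235; the sources used here give no versions, annotation, strand setting or treatment of multiply mapping reads. Positions came from Ensembl release 115 on the same assembly, matched by symbol for all 31 msp genes.

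BPTMC (n = 3) and DMSO (n = 2) were compared with the edgeR 4.0.16 quasi-likelihood test (R 4.3.3, scaled by TMM, filtered by filterByExpr at a minimum count of 10, no covariate) with Benjamini-Hochberg adjustment over 14238 genes. The SE was taken as the size of the log2 fold change over the root of the F statistic. CPM are TMM-normalised, centred profiles used a prior count of 2, and binomial intervals are exact (Clopper-Pearson, 95%). DESeq2 1.42.0 and limma-voom (limma 3.58.1) were alternatives.

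The members and the 9 other gene lists were chosen with earlier results of these data known. In those lists 3 symbols (spe-16, spe-18 and trp-3) were not matched. Named members were the 5 with the highest mean CPM, the 3 highest and 3 lowest fold changes, the 3 smallest p-values, the untested genes, the closest pairs, and in other lists genes with the smallest p or highest CPM; exceptions are marked. Sequences were not analysed here.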

Additional observations from a re-analysis of the deposited data

How the results depend on the processing

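No msp gene was called under 15 of 16 alternatives, and none was called lower in any. The exception used the replicate number as a block and left 1 residual degree of freedom. BPTMC replicate 3 has no DMSO library of its number, so the group difference in this fit rested on replicates 1 and 2 only. The block fit called 22 of 29 msp genes higher, with a median log2 fold change of 1.47. It also called 39 of the 108 tested genes of the 9 other lists, higher or lower. Of all 14238 tested genes it called 1746, with 1147 higher and 599 lower. The labels do not say that a number marks a shared culture or day. Deviations from the group means correlated over genes at 0.67 between replicates 1 and at 0.33 between replicates 2. The unmatched DMSO replicate 2 and BPTMC replicate 3 correlated at 0.47, above the matched replicates 2, and the other unmatched pairs at -0.67 to -0.33. With 2 DMSO libraries their deviations mirror each other, so these values are not independent. Only 2 numbers are shared, so the samples were taken to share only a number. All genes called, 15 in the reported fit, numbered 2 with total-count scaling, 67 with no filter, 8 with at least 1 CPM in 2 samples, 241 by DESeq2, 1 by limma-voom, 3 with legacy dispersions, 4 with near-identical neighbours reduced to 1 and 4 without rRNA genes. Leaving out 1 library gave 0 to 43. The median msp log2 fold change ran from 1.34 to 2.61 with 1 library left out and from 1.47 to 1.995 under the other settings. No named member changed sign. Without rRNA genes the msp share of counts was 0.00511% to 0.0516%. No pair of members had counts within 1% or within 10% in every library, which at such low counts cannot show whether reads were shared. With 1 DMSO library left, it was assumed to vary like the others. Low counts limit the smallest members, such as msp-63. The cause of these differences was not tested.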
